A study of Mus musculus with 6 samples.

Results

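The enzymes described here hydroxylate and crosslink collagen. They are the 10 mouse genes Lox, Loxl1, Loxl2, Loxl3 and Loxl4 (lysyl oxidases), P4ha1 and P4ha2 (catalytic subunits of prolyl 4-hydroxylase) and Plod1, Plod2 and Plod3 (lysyl hydroxylases). Every probe set annotated to exactly 1 gene symbol was taken where that symbol was one of the 10. This gave 16 probe sets of 9 genes, out of 34945 single-symbol probe sets of 18193 genes. Both probe sets that carry the symbol Loxl2 carry another symbol too, so no value is given for Loxl2.

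Collagen is modified at both ends of its life. In the endoplasmic reticulum prolyl 4-hydroxylase adds hydroxyl groups to prolines, which makes the triple helix stable at body temperature, and lysyl hydroxylases modify lysines, some of which then carry sugars. These hydroxylases need iron, 2-oxoglutarate, oxygen and ascorbate. Outside the cell, copper-dependent lysyl oxidases turn lysines and hydroxylysines of collagen, and lysines of elastin, into reactive aldehydes that join neighbouring molecules. In breast tumours lysyl oxidase is known for stiffening the matrix, and Lox, P4ha1, P4ha2 and Plod2 are known as genes that hypoxia can induce.

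The samples were cultured mouse cells that the labels call breast cancer stem cells, grown in serum-containing medium and sorted by 2 surface proteins, CD24 (gene Cd24a) and CD29, the integrin beta-1 chain (gene Itgb1). The sorted groups were CD24+CD29+ cells, positive for both proteins, and CD24-CD29- cells, negative for both, with 3 Affymetrix Mouse430_2 arrays each. The sources used here do not give the cell line, the strain, the tumour of origin or the sort gates. The design text speaks of independent biological sample sets, but no label ties them to separate cultures, sorts or animals, so the p-values measure only the spread between these arrays, part of which may be technical.

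Values are log2 RMA values as deposited, and every difference is CD24+CD29+ minus CD24-CD29- on that scale, tested with limma over 45037 probe sets with Benjamini-Hochberg adjustment and a threshold of 0.05. Rose, higher, fell and lower are used for what passed it. The gene of CD29, Itgb1, was higher in CD24+CD29+ cells by 0.87, or by 0.41 with the mean of its 6 probe sets, 1 of which fell, while Cd24a differed by 0.21 and turned to -0.01 with the mean of its 3 probe sets, 1 of which fell. On their brightest probe sets both genes were still bright in CD24-CD29- cells, at 10.06 for Itgb1 and 12.79 for Cd24a. Negative therefore describes the sorted proteins and not the RNA. Much of the array differed: 63.9% of all probe sets and 68.9% of all genes passed. The added poly-A control RNAs read higher on the CD24-CD29- arrays, and placing the arrays on the scale of these controls (poly-A scaling) moved the median of all probe sets by 0.97, so each direction is relative to the other genes on the deposited scale.

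As a family of 9 measured genes, the enzymes were mostly higher in CD24+CD29+ cells. On the brightest probe set of each gene, 8 of 9 rose and 1 fell, where 33.4% of all genes rose and 35.5% fell. Of genes with a mean level of 9 to 11, where several of the enzymes lie, 55.2% rose and 21.9% fell. The groups did not overlap for any of the 9, nor for 73.6% of all genes. The median difference was 0.79, against -0.04 for all genes. Lox stood apart in size, 5.57-fold higher. The alpha subunits P4ha1 and P4ha2 and the lysyl hydroxylases Plod1, Plod2 and Plod3 were higher by 1.52-fold to 1.96-fold, and Loxl3 was the gene that fell, 1.44-fold lower. Bulk RNA of a sorted group cannot tell more RNA per cell from more cells that express a gene.

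**Figure D1:**
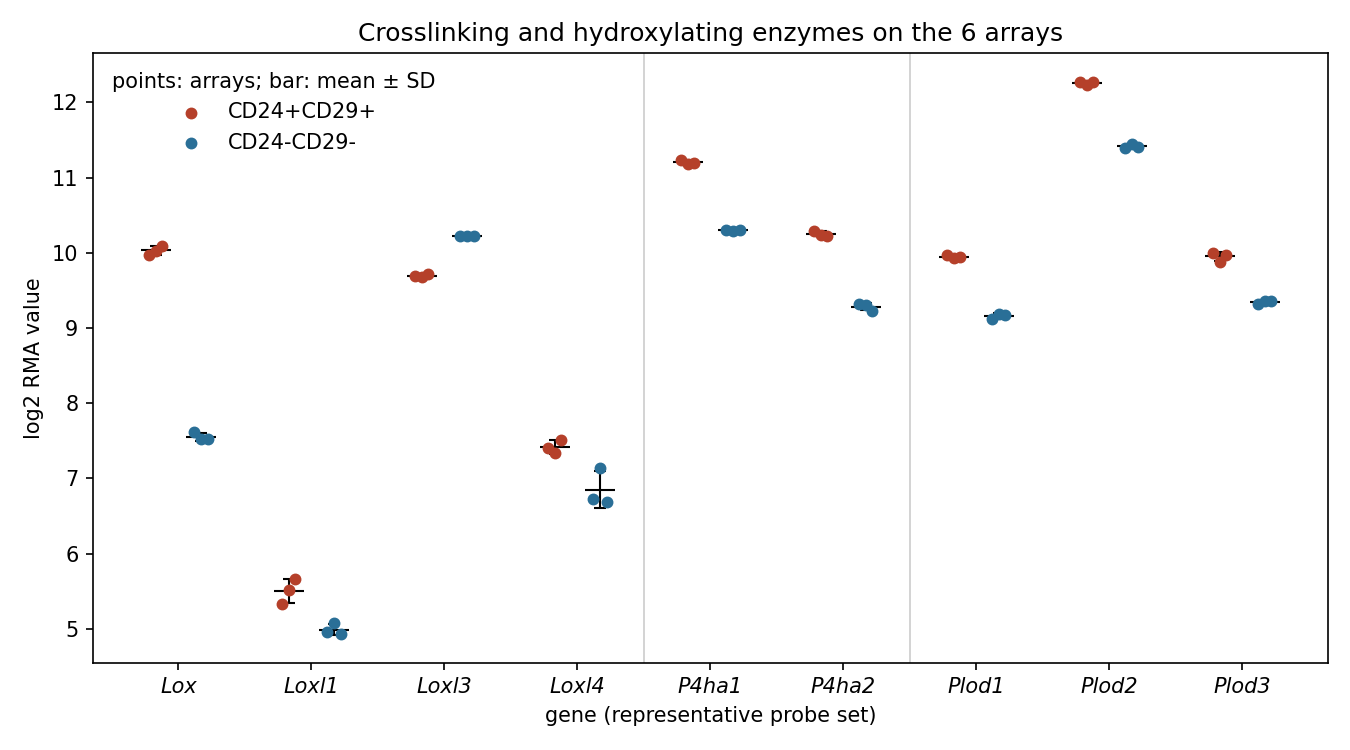
Log2 RMA values of the 9 measured enzymes on their representative probe sets, with each array as a point and the mean ± SD as a bar (n = 3 per group); vertical lines part the lysyl oxidases, the prolyl 4-hydroxylase subunits and the lysyl hydroxylases. The groups do not overlap for any of the 9 genes, Loxl3 is lower in CD24+CD29+ cells, and 1 CD24-CD29- array lies high for Loxl4.

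The promoters of both prolyl 4-hydroxylase alpha subunits, which rose together, and of P4hb, the gene of their common beta subunit, which did not pass, are shown with the core letters of hypoxia response elements, since these genes are often read as oxygen-regulated. The sequences are from RefSeq (build GRCm38.p6), run from 250 bases before to 50 bases after the annotated start, and are written 5′ to 3′ on the strand of the gene. Capitals mark ACGTG or GCGTG on either strand, and no match overlapped another.
P4ha1, chr10:59323046-59323345, plus strand: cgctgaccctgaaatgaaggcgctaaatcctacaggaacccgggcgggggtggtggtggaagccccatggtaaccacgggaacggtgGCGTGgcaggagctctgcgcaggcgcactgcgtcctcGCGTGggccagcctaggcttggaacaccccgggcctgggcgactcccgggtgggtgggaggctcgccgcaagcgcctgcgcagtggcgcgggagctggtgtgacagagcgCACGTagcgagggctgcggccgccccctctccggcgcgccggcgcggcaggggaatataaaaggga
P4ha2, chr11:54100674-54100973, plus strand: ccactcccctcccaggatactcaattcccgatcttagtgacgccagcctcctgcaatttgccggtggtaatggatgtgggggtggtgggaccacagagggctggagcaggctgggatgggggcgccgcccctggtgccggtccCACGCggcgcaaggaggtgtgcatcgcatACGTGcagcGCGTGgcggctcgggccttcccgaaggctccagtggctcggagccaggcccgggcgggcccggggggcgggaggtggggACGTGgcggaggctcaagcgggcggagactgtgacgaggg
P4hb, chr11:120573204-120573503, minus strand: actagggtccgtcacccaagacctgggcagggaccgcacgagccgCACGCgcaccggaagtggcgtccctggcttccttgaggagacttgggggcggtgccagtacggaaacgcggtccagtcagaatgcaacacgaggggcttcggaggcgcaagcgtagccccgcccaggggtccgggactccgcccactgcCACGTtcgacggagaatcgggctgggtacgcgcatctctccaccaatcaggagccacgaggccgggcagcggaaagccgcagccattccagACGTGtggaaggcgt
P4ha1 held 1 ACGTG and 2 GCGTG, P4ha2 held 2 and 2, and P4hb held 2 and 1. Over all 32851 promoters of the table, 19.6% held ACGTG, 32.4% held GCGTG and 43.8% held either. Promoters of 5 of the enzymes were examined, and the others, Lox among them, were not. That selection left out 1 chromosome, while the 32851 promoters were counted before this step. Of the 5 enzymes, P4ha1, P4ha2 and Plod3 held ACGTG, and all 5, with Plod1 and Loxl4, held GCGTG. Their windows were 53.3% to 75.0% G and C, and the shares over all promoters were not matched for this. The letters are a description of these windows and not of binding, and whether they bear on the differences was not tested.

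Lox encodes lysyl oxidase itself, which is secreted as a proenzyme and oxidises fibrillar collagen and elastin. Its brightest probe set, 1416121_at, read 9.97, 10.02 and 10.09 on the CD24+CD29+ arrays, against 7.61, 7.52 and 7.52 on the CD24-CD29- arrays. The groups lay far apart and each was tight, at 10.03 ± 0.06 and 7.55 ± 0.05 (SD, n = 3 each). The difference was 2.48 (SE 0.06, 95% interval 2.35 to 2.61, limma adjusted p = 4.7e-08), which ranked 6 from the top among 18193 genes. A second probe set, 1448228_at, which the annotation ties to the same source sequence, read 8.02, 8.01 and 7.96 in CD24+CD29+ cells, against 6.27, 6.22 and 6.33 in CD24-CD29- cells, a difference of 1.72 (SE 0.05, limma adjusted p = 1.3e-07). In both probe sets every CD24+CD29+ array lay above every CD24-CD29- array, though the difference of 1448228_at was smaller. The remaining, dim probe set, 1437903_at, gave 5.48, 5.47 and 5.54 in CD24+CD29+ cells, against 5.26, 5.11 and 5.39 in CD24-CD29- cells, near the lower quartile of an array (5.20 to 5.41). Its difference of 0.24 passed narrowly (limma adjusted p = 0.018) and did not pass without CD24+CD29+ array 3 or without CD24-CD29- array 2 (0.061 and 0.056).

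Loxl3, a lysyl oxidase paralogue known in mice for palate and cartilage development, ran the other way. Its single probe set, 1418269_at, read 9.69, 9.67 and 9.72 in CD24+CD29+ cells, against 10.22 on each array of CD24-CD29- cells. Both groups were tight, with an SD of 0.02 in CD24+CD29+ cells and 0.0029 in CD24-CD29- cells. The difference was -0.52 (SE 0.05, 95% interval -0.63 to -0.42, limma adjusted p = 2.4e-05). It was between -0.69 and -0.47 after quantile normalization, cyclic loess or median centring, but poly-A scaling turned it to 0.45.

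Loxl4 and Loxl1 differed less and were read by dimmer probe sets. Loxl4, a matrix amine oxidase with scavenger receptor domains, read 7.40, 7.33 and 7.51 in CD24+CD29+ cells, against 6.73, 7.14 and 6.69 in CD24-CD29- cells. The second CD24-CD29- array stood above the other two, yet below every CD24+CD29+ array. The difference was 0.56 (SE 0.12, limma adjusted p = 0.0027) and 0.71 without that array. The other Loxl4 probe set, at 5.13 ± 0.16 in CD24+CD29+ cells and 5.11 ± 0.13 in CD24-CD29- cells (SD, n = 3 each), did not pass (limma adjusted p = 0.82).

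Loxl1, known in mice for keeping elastic fibres in repair, read 5.33, 5.51 and 5.66 in CD24+CD29+ cells, against 4.96, 5.07 and 4.94 in CD24-CD29- cells. These values lie about the lower quartile of the arrays, where background compresses differences. The difference was 0.51 (SE 0.08, limma adjusted p = 0.00076), and of 6282 genes with a mean level of 4 to 6 only 6.92% were higher in CD24+CD29+ cells while 50.5% were lower. The second Loxl1 probe set had a difference of -0.15 and did not pass (limma adjusted p = 0.094), but it fell, by 0.21, without CD24-CD29- array 1 (limma adjusted p = 0.02).

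P4ha1 and P4ha2 encode the catalytic alpha subunits of prolyl 4-hydroxylase, each of which pairs with the beta subunit P4hb. P4ha1 read 11.24, 11.17 and 11.19 in CD24+CD29+ cells, against 10.30, 10.28 and 10.30 in CD24-CD29- cells, on 1452094_at. P4ha2 read 10.29, 10.24 and 10.23 in CD24+CD29+ cells, against 9.31, 9.30 and 9.23 in CD24-CD29- cells, on 1417149_at, its single probe set. Neither gene showed overlap between the groups, and their differences were close in size, 0.90 for P4ha1 (SE 0.05, limma adjusted p = 1.5e-06) and 0.97 for P4ha2 (SE 0.05, limma adjusted p = 1.4e-06). The dim P4ha1 probe set 1426519_at, at 5.36 ± 0.19 in CD24+CD29+ cells and 5.17 ± 0.11 in CD24-CD29- cells (SD, n = 3 each), did not pass as deposited (limma adjusted p = 0.12). It rose by 0.33 after quantile normalization and after cyclic loess, by 1.16 under poly-A scaling and by 0.28 without CD24+CD29+ array 3 (limma adjusted p = 0.041).

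P4hb, the beta subunit and also protein disulfide isomerase, averaged 14.17 ± 0.01 in CD24+CD29+ cells and 14.15 ± 0.01 in CD24-CD29- cells (SD, n = 3 each). Its difference of 0.03 did not pass (limma adjusted p = 0.65), but it was 0.14 after cyclic loess and 1.00 after poly-A scaling, and passed under both. Arrays reached at most 14.91 to 14.95, and values close to that ceiling can hide a difference. The remaining alpha subunit gene, P4ha3, was dim, with means of 5.51 in CD24+CD29+ cells and 5.44 in CD24-CD29- cells, and did not pass as deposited (limma adjusted p = 0.37). It passed after quantile normalization and cyclic loess, each with a difference of 0.22.

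The lysyl hydroxylases rose together. Plod2, which hydroxylates lysines in the telopeptides at the ends of collagen chains, read 12.28, 12.23 and 12.27 in CD24+CD29+ cells, against 11.40, 11.45 and 11.41 in CD24-CD29- cells, on 1416687_at. Plod1, which acts on lysines of the triple helix, read 9.97, 9.93 and 9.95 in CD24+CD29+ cells, against 9.12, 9.19 and 9.17 in CD24-CD29- cells, on 1416289_at. Plod3, which can also add sugars to hydroxylysine, read 9.99, 9.88 and 9.97 in CD24+CD29+ cells, against 9.32, 9.36 and 9.35 in CD24-CD29- cells. In all 3 genes every CD24+CD29+ array lay above every CD24-CD29- array.

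The difference was 0.84 for Plod2 (SE 0.05, limma adjusted p = 2.2e-06), 0.79 for Plod1 (SE 0.05, limma adjusted p = 3e-06) and 0.61 for Plod3 (SE 0.05, limma adjusted p = 1.9e-05). A second Plod2 probe set, 1416686_at, rose by 0.56 (SE 0.07, limma adjusted p = 0.00016), or by 0.36 after quantile normalization and after cyclic loess. The dim Plod1 probe set 1445893_at fell instead, by 0.31 (limma adjusted p = 0.012), at 5.17 ± 0.11 in CD24+CD29+ cells and 5.47 ± 0.14 in CD24-CD29- cells (SD, n = 3 each). That fall did not pass after quantile normalization or cyclic loess (limma adjusted p = 0.17 and 0.16) and turned to 0.67 after poly-A scaling.

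Over all 16 probe sets, 11 rose, 2 fell and 3 did not pass, where 29.2% of all probe sets rose and 34.8% fell. At least 2-fold differences were found in 2 of the 16, both of Lox, and in 2.29% of all probe sets on the higher side. The groups did not overlap for 13 of the 16, and for 68.2% of all probe sets. The disagreements within a gene lay in dim probe sets. Of 10 probe sets with a mean of 6 or more, 9 rose and 1, that of Loxl3, fell. Of 6 with a mean under 6, 2 rose, 1 fell and 3 did not pass. Averaging a gene's probe sets therefore lowered several sizes by over 1.5 times, to 1.48 for Lox, 0.55 for P4ha1, 0.29 for Loxl4, 0.24 for Plod1 and 0.18 for Loxl1, and each of these still passed.

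**Figure D2:**
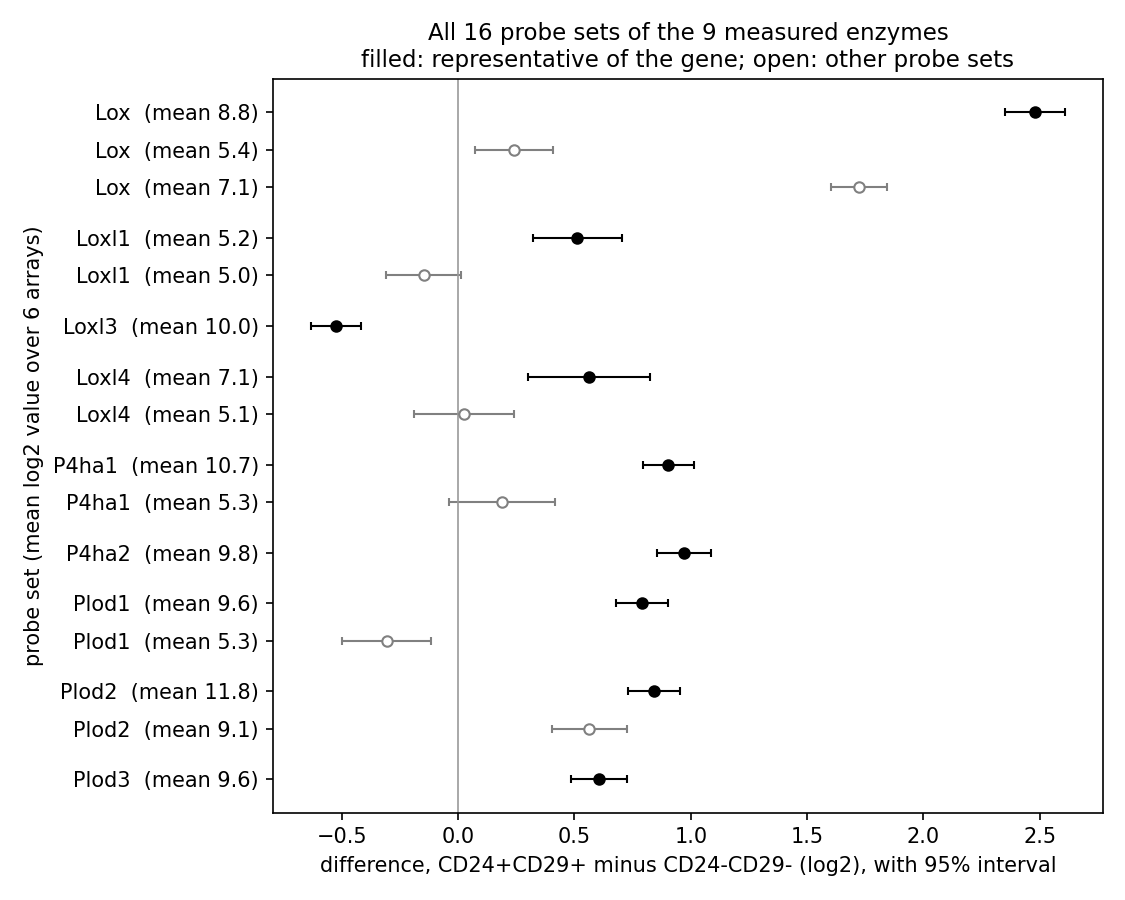
Difference between the groups (log2, with 95% interval) for each of the 16 probe sets, labelled with its mean over the 6 arrays; filled points are the representative probe set of a gene and open points its others. The Lox probe set with a mean of 8.8 lies furthest right at 2.48, Loxl3 lies at -0.52, and the open points that lie near or below 0 all have a mean under 6.

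Whether members of 1 family differed in their response was asked for 7 pairs, as the difference between their group differences on each array. The exact permutation test over 3 arrays against 3 cannot give a p under 0.1 (2-sided), and all 7 pairs gave that value, also after adjustment. The difference of Lox exceeded that of Loxl3 by 3.00, that of Loxl1 by 1.97 and that of Loxl4 by 1.92, or by 2.00, 1.30 and 1.19 with the mean of probe sets. P4ha2 exceeded P4ha1 by 0.07 and Plod2 exceeded Plod1 by 0.05. Plod2 exceeded Plod3 by 0.24, and Plod3 was below Plod1, at -0.19. Averaging the probe sets of each gene, which takes in the dim P4ha1 probe set and the dim, opposite Plod1 probe set, gave 0.42 for P4ha2 minus P4ha1, 0.46 for Plod2 minus Plod1, 0.10 for Plod2 minus Plod3 (exact permutation p = 0.2) and turned Plod3 minus Plod1 to 0.36. Plod2 minus Plod1 was 0.19 after quantile normalization and 0.18 after cyclic loess, while P4ha2 minus P4ha1 was 0.00638 and 0.0116, and Plod2 minus Plod3 0.37 and 0.36.

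Level mattered for the background: of 3806 genes with a mean level of 9 to 11, the range of P4ha1, P4ha2, Plod1, Plod3 and Loxl3, 55.2% rose and 21.9% fell. Scaling changed sizes more than directions. After quantile normalization, cyclic loess or median centring, Lox lay between 2.27 and 2.53, P4ha2 between 0.79 and 1.03, Plod2 between 0.79 and 0.90 and Plod3 between 0.42 and 0.66. Poly-A scaling gave 3.45 for Lox and made all 9 genes higher, as it did for most of the array.

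**Figure D3:**
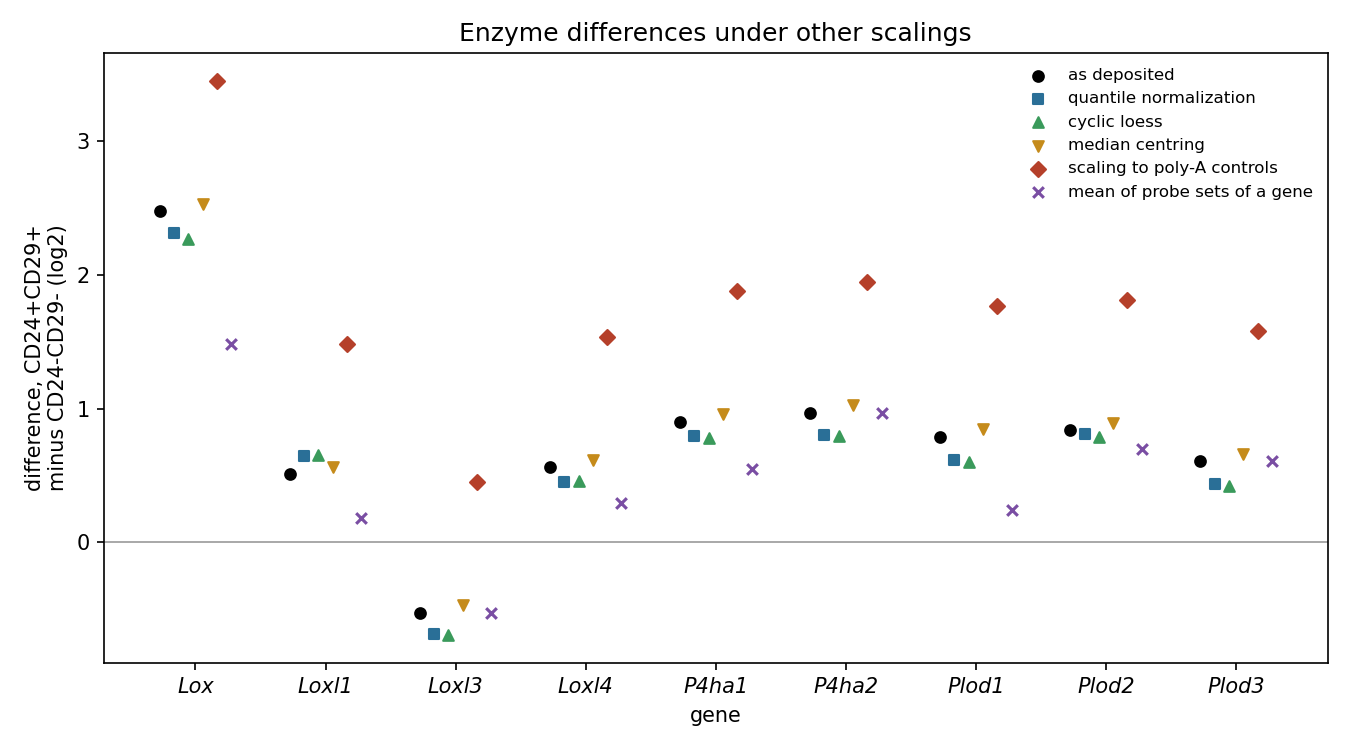
Difference between the groups (log2) of the 9 measured enzymes as deposited, under 4 other scalings and with the probe sets of each gene averaged. Loxl3 lies below 0 except under poly-A scaling, where it lies at 0.45; the other 8 genes lie above 0 throughout.

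Enzymes and chaperones that work beside the hydroxylases were also mostly higher. Of 11 listed, 10 were measured, 7 rose and 3 missed the threshold, and the median difference was 0.42. For this and each list below, the shares of all genes were 33.4% higher and 35.5% lower. Brighter genes rose more often. With a mean level of 9 to 11, where P3h2, P3h4 and Crtap lie, 55.2% rose and 21.9% fell. These shares apply to the brighter members of each list. P3h3 and P3h4, which in mice form a complex with the Plod1 product, were higher by 2.76-fold (log2 1.46, SE 0.08) and 1.97-fold (log2 0.98, SE 0.05). P3h1 and Crtap, partners in the complex that hydroxylates prolines at another position, were higher by 1.21 and 0.81, while Ppib, also of that complex, stood at 11.45 in both groups and did not pass (limma adjusted p = 0.95), or fell by 0.23 when its probe sets were averaged. The galactosyltransferase gene Colgalt1, which adds the first sugar to hydroxylysine, was higher by 0.40. Under poly-A scaling all 10 rose.

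Genes that process procollagen or help lysyl oxidase act followed in part. Of 10 measured out of 13, 6 rose and 4 missed the threshold, and the median difference was 0.49. The count of lower genes, 0 as deposited, was 1 after quantile normalization, with 1 row or the mean of probe sets for each gene and without CD24-CD29- array 1, and 2 after cyclic loess. Bmp1, the protease that releases active lysyl oxidase and trims procollagen, stood at 10.53 ± 0.02 in CD24+CD29+ cells and 9.01 ± 0.05 in CD24-CD29- cells (SD, n = 3 each), a 2.86-fold difference (limma adjusted p = 1.7e-07), although 1 of its 3 probe sets fell and the mean of the 3 gave 0.68. Pcolce2, an enhancer of that protease, was 3.73-fold higher, and Fbln5, which binds elastin, 3.72-fold, although the mean of the probe sets of Fbln5 gave a log2 difference of 0.88. Fn1, the fibronectin gene, rose by 0.55 at a level close to the upper end of the arrays.

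The substrates were mostly higher too. Of 19 collagen and elastin genes 16 rose, 2 fell and 1 missed the threshold. Their median difference was 0.71, and 7 were at least 2-fold higher, where 3.01% of all genes were. Col6a1, a collagen VI chain, was 5.15-fold higher, Col1a2, a chain of collagen I, 4.07-fold (10.21 ± 0.01 in CD24+CD29+ cells and 8.19 ± 0.07 in CD24-CD29- cells; SD, n = 3 each) and Col3a1 3.31-fold. The log2 difference of Col1a2 was 2.02, or 1.26 with the mean of its probe sets. Eln, the elastin gene and a substrate of Lox and Loxl1, stood at 6.46 in CD24+CD29+ cells and 6.81 in CD24-CD29- cells and fell by 0.35. Col4a3, dim in both groups, fell by 0.55, or by 0.25 with the mean of its probe sets. All 19 rose under poly-A scaling.

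Collagen folding and export genes gave no common direction. Of 13, 6 rose, 5 fell and 2 missed the threshold, where 33.4% of all genes rose and 35.5% fell. The median difference of the list was -0.02. The count of higher genes depended on single arrays and on scaling: it was 3 without CD24+CD29+ array 1, without CD24-CD29- array 2 or without CD24-CD29- array 3, and 2 after quantile normalization or cyclic loess. Sec24d, a coat protein of the vesicles that carry collagen out of the endoplasmic reticulum, was higher by 0.87 and the disulfide isomerase gene Pdia3 by 0.58 (0.36 with the mean of its probe sets), while Fkbp14, a prolyl isomerase, fell by 0.52, or rose by 0.46 under poly-A scaling. Serpinh1, the collagen chaperone, rose by 0.22 (limma adjusted p = 0.0096), a call that was lost after quantile normalization, cyclic loess and with the mean of its 2 probe sets (limma adjusted p = 0.17, 0.21 and 0.059).

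Genes that supply cofactors were split. Of 8, 2 rose, 3 fell and 3 did not pass. Slc23a2, an ascorbate transporter, was higher by 0.88, although its other probe set fell and the mean of both gave 0.22, and the copper importer gene Slc31a1 was higher by 0.43 (0.24 after quantile normalization). Slc31a2, a related copper transporter, fell by 0.25 (by 0.44 after quantile normalization), or rose by 0.73 under poly-A scaling. Of the 5 other crosslinking enzymes measured, 2 rose and 2 fell, to be read against the same shares of all genes. The transglutaminase gene Tgm1 was higher by 1.06 and the peroxidasin gene Pxdn, which crosslinks collagen IV, by 0.88. Tgm3 fell by 0.57, or rose by 0.40 under poly-A scaling.

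**Figure D4:**
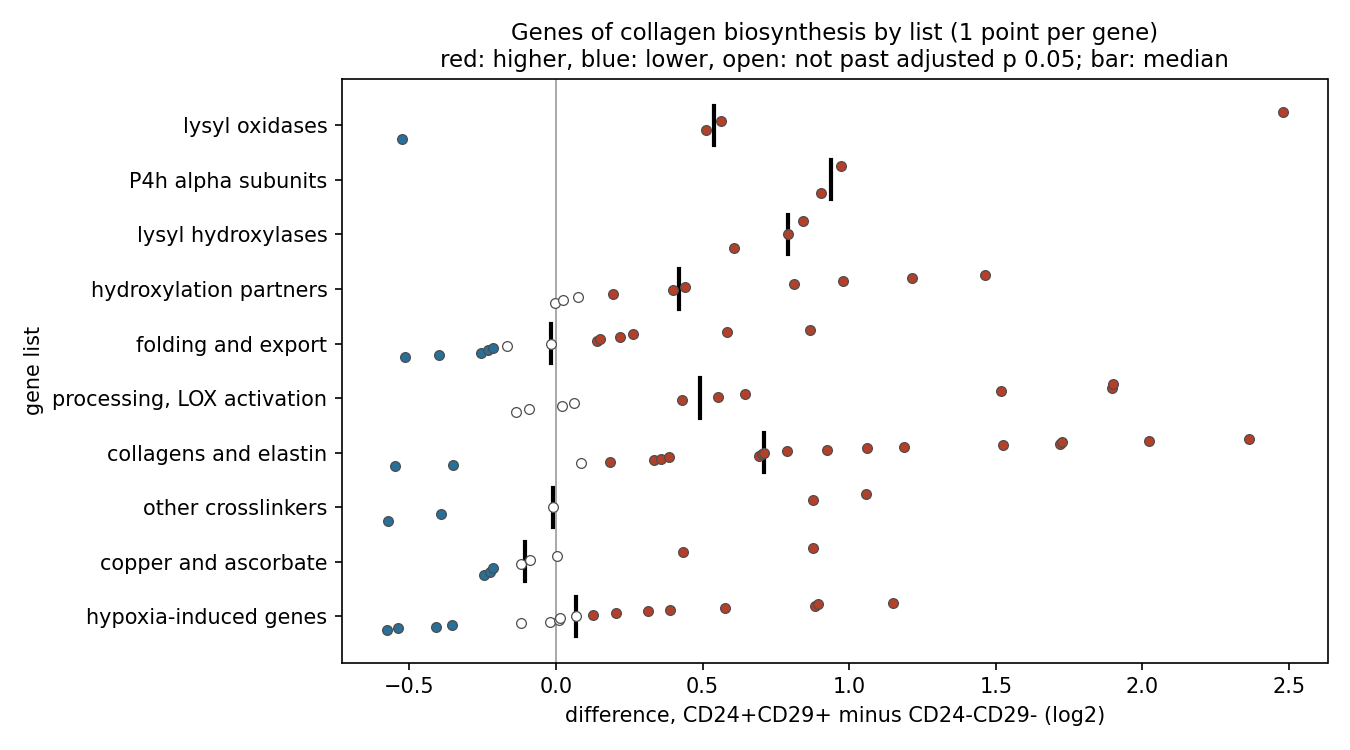
Difference between the groups (log2) for each measured gene, by list, with the list's median as a bar; red points rose, blue points fell and open points did not pass. The medians of the prolyl 4-hydroxylase subunits, the lysyl hydroxylases and the substrates lie at 0.94, 0.79 and 0.71, and those of folding and export, other crosslinkers, cofactor supply and hypoxia-induced genes lie at -0.02, -0.01, -0.10 and 0.07.

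Hypoxia-induced genes outside the family did not share 1 direction. Of 17 measured out of 18, 8 rose, 4 fell and 5 missed the threshold, and the median difference was 0.07. Of all genes 33.4% rose and 35.5% fell, and of those with a mean level of 9 to 11, 55.2% rose and 21.9% fell. Adm, the adrenomedullin gene, was higher by 1.15 (0.50 with the mean of its probe sets, 1 of which fell), the carbonic anhydrase gene Car9 by 0.89 and the hexokinase gene Hk2 by 0.88. The 4 that fell were Vegfa (-0.35), Pdk1 (-0.54), Kdm3a (-0.41) and Ankrd37 (-0.58), named after their values were seen, with 1 probe set of Vegfa and 1 of Pdk1 that rose. Averaging the probe sets ended the calls of these 2 genes (limma adjusted p = 0.79 and 0.069). All 4 were higher under poly-A scaling, as were all 17. Of 5 other oxygenases that share the cofactors of the hydroxylases and act in the hypoxia response, Hif1an was higher by 0.78 and Egln1 by 0.49 (0.16 and 0.83 with the mean of probe sets), Egln2 fell by 0.35 (0.62 under that scaling), and 2 did not pass. The labels give no oxygen level.

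Fibroblast markers were also mostly higher. Against 33.4% of all genes that rose and 35.5% that fell, 11 of the 16 markers rose, 2 fell and 3 missed the threshold. Their median difference was 0.51, and 4 of the 16 are also collagen or processing genes of the lists above. Their summed level lay between 15.03 and 15.11 in CD24+CD29+ cells and between 14.39 and 14.41 in CD24-CD29- cells on the log2 scale. Lum, a fibroblast proteoglycan gene, was higher by 1.48. No marker can be called absent, since the values came without detection calls. Epithelial markers were bright in both groups, with Epcam at 14.11 in CD24+CD29+ cells and 14.13 in CD24-CD29- cells, and 3 of 10 rose and 5 fell. Epcam did not pass on this probe set, but fell by 0.43 with the mean of its probe sets (limma adjusted p = 0.00026). Krt14 was higher by 0.99, Krt5 by 0.65, and Krt19 fell by 0.95, or gave 0.0259 and did not pass under poly-A scaling. The part of fibroblast-like or basal cells in the enzymes' differences was not tested.

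Of the leukocyte list 7 of 11 were lower, with a median of -0.29. Without the dimmest 40% of probe sets 5 of the 11 were left, and all 5 were lower. Of the 12592 genes left by that filter, 3814 were lower and 5903 higher. Of all genes with a mean level of 4 to 6, 50.5% were lower, a share to set beside the dim members of the list. The list was led by Csf1r (-0.88), Cd3e (-0.44) and Fcer1g (-0.40), whose group means of 6.23 to 7.63 lay above that range. The pan-leukocyte marker of the list, Ptprc, stood at 4.85 in CD24+CD29+ cells and 4.94 in CD24-CD29- cells, below the lower quartile of the arrays. Under poly-A scaling 10 of the 11 were higher. Of 8 endothelial markers 2 rose, 1 fell and 5 did not pass, with Pecam1 at 4.87 in CD24+CD29+ cells and 5.00 in CD24-CD29- cells. Vwf and Cdh5 were each higher by 0.29 and Tek fell by 0.20, all at levels of 4.60 to 5.27. Cdh5 did not pass with the mean of its probe sets (0.0852, limma adjusted p = 0.27), nor without CD24+CD29+ array 1, CD24-CD29- array 1 or CD24-CD29- array 2. Tek did not pass after quantile normalization, cyclic loess or median centring (limma adjusted p = 0.34, 0.39 and 0.091), nor without CD24+CD29+ array 2 or 3 or CD24-CD29- array 1 or 3.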

How the data were processed

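Mouse430_2 arrays of 3 CD24+CD29+ and 3 CD24-CD29- samples were compared. The authors deposited log2 values, made with RMA and Partek per the submitters' processing notes; versions, settings, order and genome build were not given in the sources used here. Probe sets were named through the platform annotation, which can be old; 932 with several symbols and 9160 with none stayed unnamed, and 64 controls were left out of the tests. Each gene is represented by the brightest of its single-symbol probe sets (mean over all arrays), passing over any ending in _x_at where it had another. limma 3.58.1 in R 4.3.3 (lmFit, eBayes, no trend, no block) was fitted to 45037 probe sets.

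The lists and the enzymes were chosen with earlier results of these data known, and list members not measured were not analysed here. Named genes are all the enzymes, P4hb, Serpinh1, Bmp1, Fn1, the sort genes and the 3 largest called differences of each list. Other genes named for completeness were chosen after their values were seen. The number of arrays limits the precision. On simulated data with this spread, the fit recovered 54% of probe sets changed by 0.5 and 98% of those changed by 1, of 50 each among 45037. Only 131 were called there, while 63.9% of probe sets passed in the real data. The adjusted cutoff was therefore stricter in the simulation, and these shares do not give the sensitivity of the real comparison. Within a group, r between arrays was 0.997 to 0.998 across probe sets, which are not independent replicates. The background correction could not be varied, and no slide or scan batch is given in the sources used here. RMA background compresses differences of dim probe sets.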

Additional observations from a re-analysis of the deposited data

How the results depend on the processing

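The enzymes' differences were recomputed under 15 alternatives: 4 scalings (quantile normalization, cyclic loess, median centring, poly-A controls), a filter that drops the dimmest 40% of probe sets, an intensity trend, a replicate block, 1 row a gene, an average over the probe sets of each gene and each array left out in turn. Of 134 values for the 9 genes, 133 kept their direction and call, and the exception was Loxl3 under poly-A scaling, at 0.45. Many of these directions were fixed by construction. The filter, the trend, the block and 1 row a gene cannot move a difference, so only the call could change. The average cannot move the genes with 1 probe set, Loxl3, P4ha2 and Plod3. Poly-A scaling raised every difference, so it could turn only Loxl3. Leaving out an array gave 10 to 11 higher and 2 to 3 lower probe sets, 8 higher genes and 1 lower gene, and 55 to 58 higher and 31 to 34 lower list genes, against 61 and 32 of 126 with all arrays. Of the 2 lower probe sets, 1 stayed lower after quantile normalization, 1 after cyclic loess and 1 with the filter, which drops the dim one, and 0 under poly-A scaling, which also left 0 lower genes and gave 124 higher and 0 lower list genes. At least 2-fold differences were held by 2 higher and 0 lower probe sets, 1 higher and 0 lower gene, and 17 higher and 0 lower list genes. The difference between Plod3 and Plod1 turned to 0.36 with the mean of probe sets.

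Other values that turned under poly-A scaling, which adds the same amount to every gene, were those of 1 probe set each of Loxl1 (0.83) and Plod1 (0.67), and Fkbp14 (0.46), Tgm3 (0.40), Slc31a2 (0.73), Egln2 (0.62), Csf1r (0.10), Cd3e (0.54), Fcer1g (0.57), Tek (0.77), Krt19 (0.0259), Eln (0.62), Col4a3 (0.43), Vegfa (0.62), Pdk1 (0.43), Kdm3a (0.56), Ankrd37 (0.40), Ppib (0.97), Epcam (0.95), Ptprc (0.89) and Pecam1 (0.84). Values near 0 that did not pass also changed sign: Ppib gave 0.0504 after median centring and -0.0190 to 0.0211 with an array left out, Epcam 0.0181, 0.0850 and 0.0328 after quantile normalization, cyclic loess and median centring, and Ptprc 0.0323 and 0.0437 after quantile normalization and cyclic loess and -0.158 to 0.00294 with an array left out. The dim Loxl4 probe set, at 0.03, gave -0.0635, -0.00379 and -0.0170 without CD24+CD29+ array 3, CD24-CD29- array 1 and CD24-CD29- array 2, and Cd24a gave -0.0150 with the mean of its probe sets. Apart from what that shift or an average over probe sets sets by construction, the cause was not tested.

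Arrays of the same number deviated together at r = 0.20, -0.04 and 0.05, so the numbers were not taken to pair the arrays. With the replicate block, 11 higher and 2 lower probe sets, 8 higher genes and 1 lower gene were called, and 59 higher and 33 lower list genes. In this balanced design the block cannot move a pairwise difference, so these values stand by construction: 0.07 for P4ha2 minus P4ha1, 0.05 for Plod2 minus Plod1, 0.24 for Plod2 minus Plod3, -0.19 for Plod3 minus Plod1, and 1.97, 3.00 and 1.92 for Lox minus Loxl1, Loxl3 and Loxl4.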
